A study of Mus musculus with 2 samples.

Results

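The GTPases of immunity-associated proteins (GIMAP) were followed through the immune cells of mouse melanomas. The 8 members (Gimap1, Gimap3, Gimap4, Gimap5, Gimap6, Gimap7, Gimap8 and Gimap9) were taken by symbol from the 24510 genes of a single-cell count table. They were chosen with results of these data in view, and selected on their measured levels in T, NK, B and myeloid cells, so those levels are given as a description and carry no test. Tumours grew under the skin of female C57BL/6 mice from Tyr knockout, Oca2 knockout or wildtype B16F10 cells, a mouse melanoma line, with 3 mice for each tumour genotype. Cells carrying CD45, the surface protein of blood-derived cells, were sorted, each genotype received a sample tag, and the pool went through 1 BD Rhapsody whole-transcriptome capture. The tag calls 8, 9 and 10 name no genotype, so knockout and wildtype tumours were not compared, and each value is given for the 3 tags in the order 8, 9 and 10. Whether mice sharing a genotype got separate tags is not said, so each tag is 1 pool and cells are not replicates.

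GIMAP proteins share a GTP-binding domain of the AIG1 type and are encoded side by side in a single gene cluster in mammals. They are known mainly from lymphocytes: rats and mice that lose Gimap5 run short of T cells, and mouse lymphocytes need Gimap1 to mature and survive. The members have been tied to lymphocyte survival, to organelle membranes and to autophagy, the process in which cells digest their own components.

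The table held 14899 cells. Of 13090 cells with a single tag, 10491 passed the filters on detected genes and mitochondrial molecules. They held 20020951, 20814133 and 22908828 molecules in tags 8, 9 and 10, with medians of 3224.5, 3670 and 3565 molecules per cell. Marker counts placed 7541 of the kept cells in 6 classes. The B class had 246 cells, the NK class 77, the T class 2209, the plasmacytoid dendritic (pDC) class 142, the myeloid class 4817 and the melanoma class 50, and 2950 cells met no gate. Each molecule is counted once whatever the length of its transcript, so levels are given as CPM, the molecules of a gene among 1000000 of the class total. Levels of different members are set side by side without a length correction, and differences in capture between genes were not tested. The T markers summed to between 4125 and 4396 CPM in the T class. The 8 members contributed 29004 molecules in kept cells.

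The 8 genes lie within 123.6 kb of chromosome 6 (GRCm38, 48647234 to 48770851), in the order Gimap8, Gimap9, Gimap4, Gimap6, Gimap7, Gimap1, Gimap5 and Gimap3. The plus strand carries 6 of them, and Gimap6 and Gimap3 lie on the minus strand. The read-through gene Gm28053 overlaps Gimap7, Gimap1 and Gimap5 on the plus strand (48718607 to 48752644), and it held 2 molecules in all kept cells. Its exons cover 3.48% of the exonic bases of Gimap7, 6.44% of those of Gimap1 and 3.69% of those of Gimap5. The antisense gene Gimap1os overlaps Gimap1 and is not among the counted genes used here. Stretches of 50 bases from the last 600 bases of each member's annotated transcripts had 0 exact matches in another member's transcripts.

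**Figure D1:**
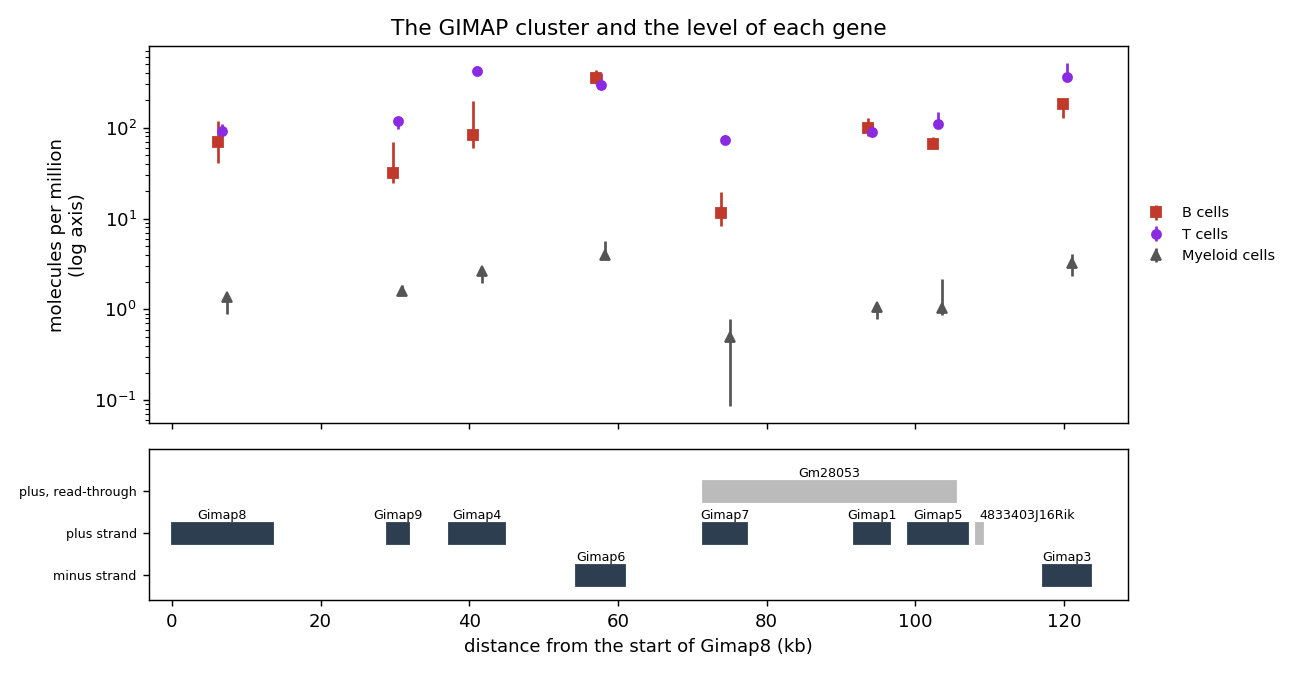
The GIMAP cluster along chromosome 6, as distance from the start of Gimap8 in kb (lower panel), with the level of each member in CPM on a log axis (upper panel). Points are the median of 3 sample tags and bars run from the lowest to the highest tag in B, T and myeloid cells. Gimap6 and Gimap1 have medians of 355 and 98.5 in B cells, against 292 and 88.7 in T cells, while Gimap7 has 11.6 in B cells, against 72.8 in T cells.

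The upstream sequences of 4 members are shown because those members were called in the comparisons among lymphocytes: Gimap4 and Gimap7 in B against T cells, and Gimap6 and Gimap3 in cycling against non-cycling T cells. Each is the 250 bases before the RefSeq start of transcription on GRCm38.p6, read 5′ to 3′ on the gene's strand. They are chr6:48684328-48684577 on the plus strand for Gimap4, chr6:48708245-48708494 on the minus strand for Gimap6, chr6:48718371-48718620 on the plus strand for Gimap7 and chr6:48770852-48771101 on the minus strand for Gimap3. Capitals mark exact matches, on either strand, to any of 5 motifs: TGTGGT (RUNX), AGGAAG (ETS), CTTTGA (TCF/LEF), CCACCC (KLF) and GTAAACA (FOXO).
Gimap4: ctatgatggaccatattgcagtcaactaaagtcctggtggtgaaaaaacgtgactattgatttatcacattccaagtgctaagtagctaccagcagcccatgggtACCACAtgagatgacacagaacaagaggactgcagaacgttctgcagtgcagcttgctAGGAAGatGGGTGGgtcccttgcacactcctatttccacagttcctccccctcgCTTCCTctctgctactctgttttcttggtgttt
Gimap6: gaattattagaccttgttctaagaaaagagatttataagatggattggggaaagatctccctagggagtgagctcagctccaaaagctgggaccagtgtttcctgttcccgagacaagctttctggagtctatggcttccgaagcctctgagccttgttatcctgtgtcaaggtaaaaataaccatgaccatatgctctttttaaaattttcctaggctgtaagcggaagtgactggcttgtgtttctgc
Gimap7: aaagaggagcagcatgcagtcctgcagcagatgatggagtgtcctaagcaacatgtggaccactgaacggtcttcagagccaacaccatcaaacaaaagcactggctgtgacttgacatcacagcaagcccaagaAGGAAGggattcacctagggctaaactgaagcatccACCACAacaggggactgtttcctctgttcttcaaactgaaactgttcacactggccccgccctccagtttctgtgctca
Gimap3: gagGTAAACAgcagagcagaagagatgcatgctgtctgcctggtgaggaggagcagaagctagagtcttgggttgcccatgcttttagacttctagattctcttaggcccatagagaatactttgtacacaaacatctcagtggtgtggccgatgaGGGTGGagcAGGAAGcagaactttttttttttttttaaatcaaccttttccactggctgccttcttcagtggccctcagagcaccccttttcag
The matches do not overlap one another in these 4 windows. The Gimap4 window had 4 matches, to the RUNX, ETS and KLF motifs, and the ETS motif matched at 2 places. The Gimap7 window had an ETS and a RUNX match, the Gimap3 window a FOXO, a KLF and an ETS match, and the Gimap6 window had 0 matches to these letters. All 8 members matched an entry of the RefSeq promoter table, with 9 windows among them. The ETS letters occurred in 7 of those 9 windows, against 29.5% of the 32851 windows of the same length in the table. The KLF letters occurred in 5 of 9 windows against 28.1%, the RUNX letters in 3 of 9 against 14.0%, the FOXO letters in 1 of 9 against 3.17% and the TCF/LEF letters in 0 of 9 against 13.8%. A match of letters is a description and not a binding site.

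GIMAP transcripts were abundant in the lymphocyte classes and scarce in the others. The 8 members summed to 924, 1051 and 857 CPM in the B cells of tags 8, 9 and 10, to 1497, 2288 and 1369 in NK cells, and to 1967, 1491 and 1512 in T cells. In pDC they summed to 88.8, 111.5 and 130, in myeloid cells to 16.8, 16.2 and 14.0, and in melanoma cells to 4.33, 31.7 and 4.29. T and NK ranges overlapped, the B range lay below both, and the pDC, myeloid and lymphocyte ranges did not overlap one another. The melanoma range, from 24 molecules, enclosed the myeloid one.

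In T cells the most abundant members were Gimap4, a GTPase linked to the timing of T cell death in mice, and Gimap3, a close relative of Gimap5. Gimap4 had 480, 422 and 389 CPM in T cells, against 1.95, 2.66 and 2.66 in myeloid cells. Gimap3 had 513, 351 and 358 in T cells, against 3.22, 4.04 and 2.32 in myeloid cells. Gimap6, whose protein binds the autophagy protein GABARAPL2, had 400, 274 and 292 in T cells, against 5.66, 3.55 and 3.95 in myeloid cells. T cell values of these 3 members exceeded the myeloid values in each tag, without overlap. Gimap5, whose loss causes lymphopenia, had 147, 109 and 107 in T cells, against 0.878, 2.17 and 1.03 in myeloid cells. Gimap1, Gimap8, which carries several GTPase domains in a row, and Gimap9 ranged from 82.1 to 120.2 in T cells, against 0.788 to 1.85 in myeloid cells. Gimap7 was the least abundant in T cells with 84.0, 72.8 and 66.0, against 0.780, 0.493 and 0.0860 in myeloid cells. That last myeloid value is 1 molecule, and the ratio in that tag has a 95% counting interval on the log2 scale of 7.10 to 14.89.

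A gene was called when at least 30 molecules were counted over both classes and every tag showed a CPM difference of 2-fold or more, all of them one way. By this rule 8 of 8 members were higher in T than in myeloid cells, where 20.2% of 12565 tested genes were, and 0 were lower (13.5%). The summed family was 6.87, 6.53 and 6.75 higher on the log2 scale in T cells, a median of 108-fold, beside a median over all tested genes of 0.37. In NK cells 7 of 7 tested members were higher than in myeloid cells (5.37% of genes) and 0 were lower (3.04%), at a family median log2 ratio of 6.61. In B cells 7 of 7 tested members were higher than in myeloid cells (11.8% of genes) and 0 were lower (6.88%), at a family median of 5.94. The medians over all tested genes were 1.14 for NK and 0.92 for B cells. Gimap7 had too few molecules for the rule in both. These contrasts belong to the values in view when the members were chosen, and nothing is read from the counts.

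**Figure D2:**
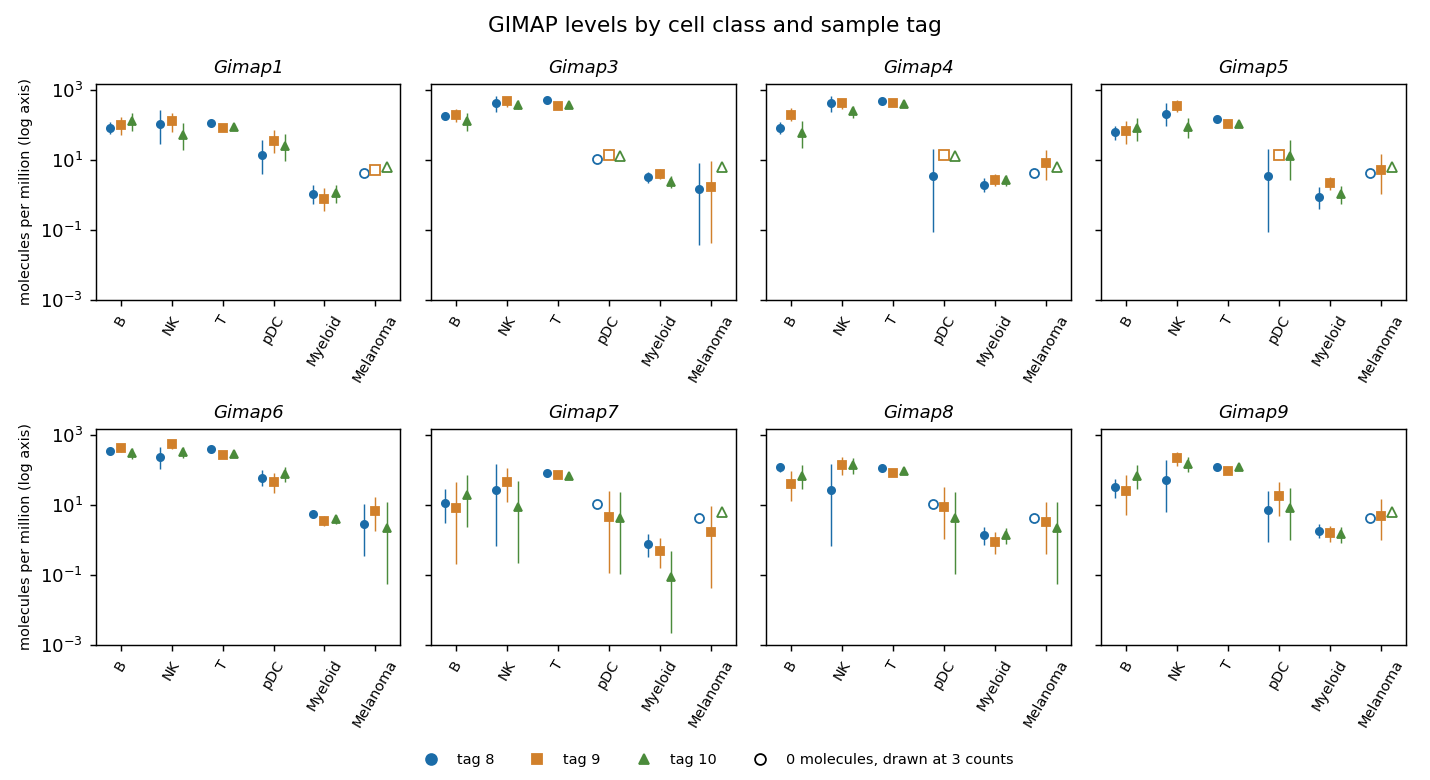
Level of each GIMAP member in CPM (log axis) in 6 cell classes. Each point is 1 sample tag, bars are exact Poisson 95% intervals that cover counting error, and open symbols mark 0 molecules, drawn at the level of 3 counts. The B, NK and T points of Gimap6 lie between 236 and 544, and its myeloid points between 3.55 and 5.66.

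Low counts outside lymphocytes were set beside the levels of lymphocyte markers in the same cells. A GIMAP molecule was found in 92.7%, 92.2% and 91.7% of T cells, against 8.34%, 7.95% and 8.05% of myeloid cells. The median depth was 3197, 3774 and 3294 molecules in T cells, against 4694, 5185 and 5504.5 in myeloid cells. With every cell thinned to 1000 molecules, which left out 7, 9 and 13 T cells and 45, 44 and 41 myeloid cells, the shares were 76.8%, 72.6% and 71.6% in T cells, against 2.08%, 2.11% and 2.33% in myeloid cells. Melanoma cells, which should lack these genes, gave thinned shares of 0 of 17, 2 of 19 and 0 of 14 cells. With a count of 0 set to 3 cells, a simpler limit than the exact interval, those shares could reach 17.6% and 21.4%. Their unthinned shares were 11.8%, 47.4% and 14.3%, at median depths of 50774, 12285 and 22277 molecules. The thinned myeloid shares lie below those limits, so with so few melanoma cells they were not told apart from background. The 6 T markers, held to at most 1 molecule per myeloid cell by the gate, summed to 20.6 to 22.5 CPM there. The 4 NK markers summed to 2.15 to 3.74 and the 4 B markers to 2.96 to 4.38 in the same cells, with a molecule of every one of these markers found. In the 3 tags of myeloid cells without any T, NK or B marker molecule the family ratio of T to myeloid cells was as large, at 6.78 (6.64 to 7.11).

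Within the myeloid class, macrophages with C1q transcripts had a family level of 9.30 to 11.2 CPM, neutrophils 21.8 to 36.2 and the other myeloid cells 16.3 to 22.4. In CPM the neutrophil range lay above the macrophage range. Thinned shares went the same way, at 2.87% to 3.76% against 0.848% to 1.52%. As molecules per cell neutrophils were lower in each tag, at 0.0524, 0.0667 and 0.0870 against 0.103, 0.0776 and 0.114. Neutrophils were shallower, with medians of 2206, 2094 and 2132 molecules, against 8599.5, 7414 and 8982.5 in macrophages. The 6 T markers summed to 37.7 to 55.9 CPM in neutrophils and to 15.2 to 20.4 in macrophages, and their part in the difference in CPM was not tested. Gimap9 made up 14 of 34 family molecules in neutrophils.

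Gimap6 and Gimap1 made up most of the pDC level. Of 81 family molecules in pDC, 45 were Gimap6 and 18 were Gimap1. Gimap6 had 60.4, 44.6 and 75.5 CPM in pDC, and Gimap1 14.2, 35.7 and 25.2. Gimap3, among the leading members of T cells, had 0 molecules in pDC in each tag, with exact Poisson upper limits of 13.1, 16.5 and 15.5 CPM. Gimap4 had 1 molecule there. Gimap6 formed 68.0%, 40.0% and 58.1% of the family molecules in pDC, against 33.7%, 22.0% and 28.2% in myeloid cells and 38.4%, 40.6% and 35.6% in B cells. The pDC and B cell shares overlapped. The pDC class had 5 of 6 T markers with a molecule, summing to 17.8 to 40.2 CPM. The part of that T cell signal in the pDC level was not tested.

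NK cells were close to T cells in their family level in CPM, but lower as molecules per cell. Their CPM ratio to T cells was -0.39, 0.62 and -0.14 on the log2 scale, so the direction differed between tags. The median over all tested genes was 0.51, and 0 of 8 members were called lower (0.668% of genes) or higher (1.60%). Median depth was 2279, 2731 and 2717 molecules in NK cells, against 3197, 3774 and 3294 in T cells. The family had 4.75, 6.73 and 4.54 molecules per NK cell, against 9.13, 8.83 and 7.63 per T cell. The NK gate allowed no molecule of the 6 T markers, which are genes of CD3 and of the alpha-beta receptor, and left 12, 30 and 35 cells. A wider gate, chosen after seeing the data and allowing up to 2 such molecules, gave a ratio of 0.31 (0.17 to 0.72) over 268 cells. The gamma-delta receptor genes Trdc and Tcrg-C1 were not limited by the NK gate. Both had molecules in the NK class, summing to 0 to 146.3 CPM over the tags. The part of gamma-delta T cells in the NK level was not tested. Gimap5 had 210, 351 and 86.1 CPM in NK cells, against 147, 109 and 107 in T cells, and these ranges overlap. Gimap7 had 26.3, 45.3 and 8.61 in NK cells, from 1, 4 and 1 molecules, against 84.0, 72.8 and 66.0 in T cells. Its NK levels lay below its T levels in each tag, with counting intervals of the log2 ratio of -6.99 to 0.81 in tag 8 and -8.25 to -0.45 in tag 10. With cells thinned to 1000 molecules, 1 Gimap7 molecule was left in all NK cells, too few to give a direction.

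B cells carried the family in other proportions than T cells. Gimap6 led in B cells with 355, 427 and 305 CPM, against 400, 274 and 292 in T cells. It made up 38.4%, 40.6% and 35.6% of the family molecules in B cells, and 20.3%, 18.4% and 19.3% in T cells, without overlap. Gimap4 had 83.7, 197 and 59.1 CPM in B cells, against 480, 422 and 389 in T cells. Each B cell value of Gimap4 lay below each T cell value. Gimap7 had 11.6, 8.21 and 19.7 in B cells, from 4, 1 and 2 molecules, against 84.0, 72.8 and 66.0 in T cells. Its counting intervals of the log2 ratio were -8.46 to -0.66 in tag 9 and -4.80 to 0.12 in tag 10.

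Gimap4 and Gimap7 were the 2 of 8 members called lower in B than in T cells (5.07% of genes), with median log2 ratios of -2.52 and -2.86, and 0 were called higher (4.69%). The median mitochondrial share was 9.5%, 9.74% and 9.18% in B cells, against 6.00%, 6.16% and 6.03% in T cells. With a limit of 10% on that share, which left 143 B cells and 2028 T cells, Gimap4 alone was called and Gimap7 had a median of -1.92. The family ratio was -1.09, -0.51 and -0.82, beside a median over all tested genes of 0.29. Gimap9 had 31.8, 24.6 and 69.0 CPM in B cells, against 120.2, 95.7 and 118.9 in T cells. It was lower in B cells in each tag, though by less than 2-fold in tag 10. Gimap3 had 182, 189 and 128 in B cells, against 513, 351 and 358 in T cells, with a median log2 ratio of -1.48. Gimap1 had 80.8, 98.5 and 128 in B cells, against 112, 82.1 and 88.7 in T cells, ranges that overlap. For Gimap1 and Gimap6 the small positive median ratios of 0.26 and 0.07 turned to -0.01 and -0.21 with TMM scaling. B cells held fewer molecules per cell, with medians of 2203, 2118 and 2380, against 3197, 3774 and 3294 in T cells, and as molecules per cell the family ratio was -1.87. The 6 T markers summed to 19.7 to 82.1 CPM in B cells.

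**Figure D3:**
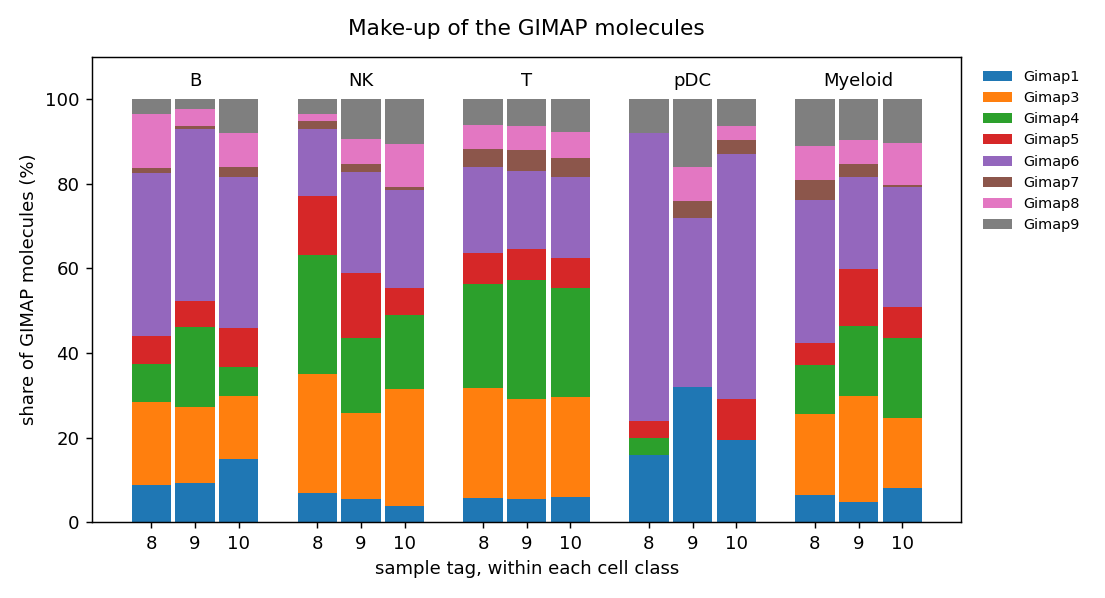
Share of each member in the GIMAP molecules of 5 cell classes, as percent, with 1 bar for each sample tag. Gimap6 takes 35.6% to 40.6% of the molecules in B cells and 18.4% to 20.3% in T cells, and Gimap3 is missing from the pDC bars, which rest on 25, 25 and 31 molecules.

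Members were found together in single T cells. At 1000 molecules per cell, 27.1%, 19.8% and 19.6% of T cells held molecules of at least 3 members. In B cells the share was 6.00%, 5.66% and 2.44%. The mean number of members found was 0.773, 0.868 and 0.829 in B cells, against 1.66, 1.42 and 1.42 in T cells. Shares at this depth count cells with a molecule and not cells that express a gene.

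Of the 4 T cell subsets gated apart, conventional CD4 cells had the highest GIMAP level in CPM in each tag, though not as molecules per cell. The family summed to 1622, 1165 and 1279 CPM in CD8 cells, to 2146, 1458 and 1583 in regulatory T cells, which carry Foxp3, to 1894, 1481 and 1394 in gamma-delta T cells and to 2835, 2321 and 2029 in conventional CD4 cells. The regulatory and gamma-delta ranges overlapped each other and the CD8 range, and the regulatory range reached into the conventional CD4 range. The CD8 and conventional CD4 ranges did not overlap. A further 755 of the 2209 T cells, called unresolved, met none of the subset gates, and their family level was 2026, 1919 and 1721 CPM.

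The CD8 and conventional CD4 ranges in CPM did not overlap for Gimap1, Gimap3, Gimap4, Gimap6, Gimap8 and Gimap9, and overlapped for Gimap5 and Gimap7. Gimap6 had 290, 181 and 235 CPM in CD8 cells, against 731, 484 and 484 in conventional CD4 cells. It was the 1 of 8 members called lower in CD8 cells (2.06% of genes), at log2 ratios of -1.33, -1.42 and -1.04, and 0 were called higher (2.61%). The call was lost with stricter gates, after thinning, without mitochondrial, ribosomal and immunoglobulin genes in the total, with a mean of CPM over cells and without the 5% of cells with most molecules, at medians between -1.31 and -0.91. As molecules per cell its median ratio was -0.19. The family ratio was -0.81, -0.99 and -0.67 in CPM, and turned to 0.19 as molecules per cell, where the median of all tested genes stood at 0.97. CD8 cells were deeper, with medians of 3834.5, 5567 and 3911 molecules, against 2909, 2954 and 2966 in conventional CD4 cells. The cycling markers Mki67 and Top2a summed to 598 to 680 CPM in CD8 cells, against 124 to 488 in conventional CD4 cells. The part of cycling cells in these differences was not tested.

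In regulatory T cells Gimap6 had 248, 195 and 173 CPM, against 731, 484 and 484 in conventional CD4 cells. It was again the 1 of 8 members called lower (1.94% of genes), with log2 ratios of -1.56, -1.31 and -1.49, and 0 were called higher (2.40%). The call was lost after thinning, at a median of -1.07, and with a mean of CPM over cells, at -1.48. As molecules per cell its median ratio was -0.62. Gimap7, described in human cells as a partner that stimulates the GTPase of another family member, had 150, 86.1 and 128 CPM in regulatory T cells, against 79.6, 61.9 and 50.8 in conventional CD4 cells. The ranges of Gimap7 did not overlap, but its log2 ratios of 0.92, 0.48 and 1.34 did not reach 2-fold in each tag. The family ratio was -0.40, -0.67 and -0.36 in CPM and turned to 0.51 as molecules per cell, beside 0.98 for the median of all tested genes. The other 6 members had median ratios between -0.59 and -0.14, of which each turned positive as molecules per cell. Regulatory cells were deeper, with medians of 4153, 3969 and 3990 molecules, against 2909, 2954 and 2966 in conventional CD4 cells. Their Mki67 and Top2a molecules summed to 659.2 to 848.5 CPM, against 123.7 to 488.2 in conventional CD4 cells. The part of cycling cells in these differences was not tested.

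**Figure D4:**
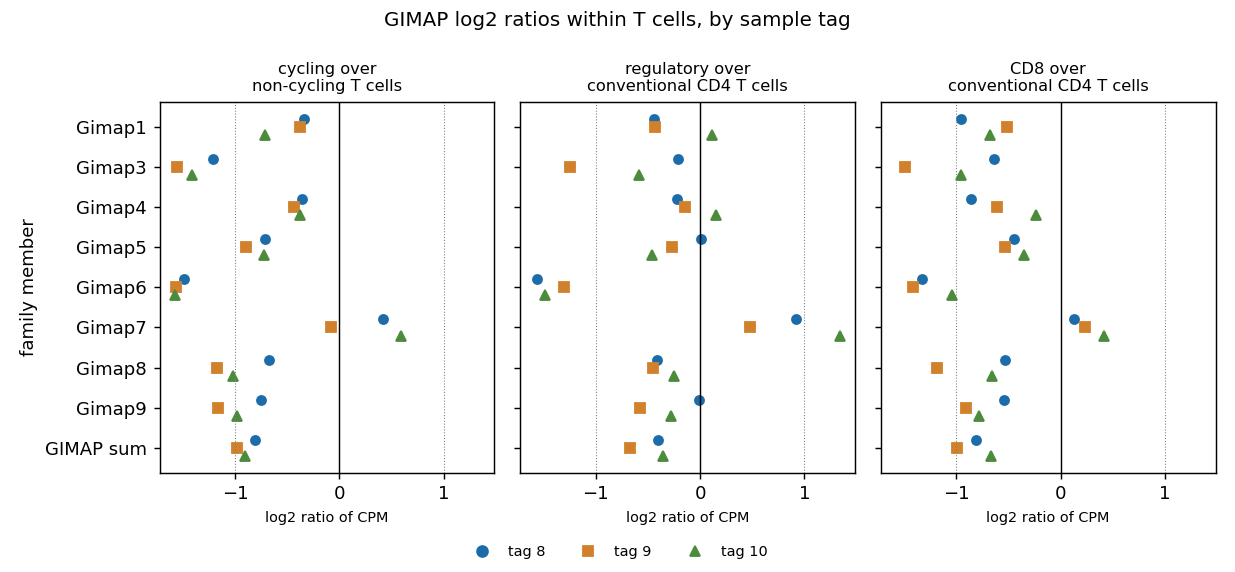
Log2 ratio of CPM for each member and for the summed family in 3 comparisons within T cells, with 1 symbol for each sample tag. Dotted lines mark a 2-fold difference. Gimap6 lies left of the dotted line in every tag of all 3 panels and Gimap7 lies near or right of 0; as molecules per cell, Gimap6 has a median of 0.06 in the cycling comparison.

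Cycling T cells, with transcripts of Mki67 or Top2a, had less of the family in CPM but not as molecules per cell. The family summed to 1338, 992 and 1023 CPM in cycling cells, against 2342, 1952 and 1920 in non-cycling cells. Gimap6 had 192, 133 and 141 in cycling cells, against 539, 395 and 421 in non-cycling cells. Gimap3 had 280, 175 and 187 in cycling cells, against 647, 517 and 501 in non-cycling cells. Neither gene's ranges overlapped.

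Gimap6 and Gimap3 were the 2 of 8 members called lower in cycling cells (4.10% of genes), and 0 were called higher (5.28%). They had median log2 ratios of -1.57 and -1.42, which turned to 0.06 and 0.30 as molecules per cell. With cells thinned to 1000 molecules their medians were -1.20 and -0.75 and 0 members passed the rule. Of 6731 genes tested after thinning, 94 were called lower and 181 higher. Gimap4 had 402, 359 and 335 CPM in cycling cells, against 517, 488 and 437 in non-cycling cells, at a median of -0.38 that turned to 1.19 as molecules per cell. Gimap7 had 96.0, 72.1 and 79.8 in cycling cells, against 71.8, 76.1 and 52.9 in non-cycling cells, ranges that overlap. Gimap1, Gimap5, Gimap8 and Gimap9 had medians between -1.02 and -0.38, which turned to between 0.70 and 1.17 as molecules per cell.

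Cycling and non-cycling cells differed in depth, and the ratios differed between the scales. Cycling cells held a median of 7057.5, 10115 and 9731.5 molecules, against 2988, 3314 and 3004.5 in non-cycling cells. The family ratio was -0.81, -0.98 and -0.91 in CPM and 0.70, 0.66 and 0.81 as molecules per cell. On the second scale the median of all tested genes was 1.60, so the family stood below it on both. Within CD8 cells the CPM median was -1.10. Within T cells without a molecule of the checkpoint receptors Pdcd1, Havcr2 and Lag3 it was -0.35, and 0 of 8 members passed the rule. There 94 of 8577 tested genes were called lower and 213 higher.

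**Figure D5:**
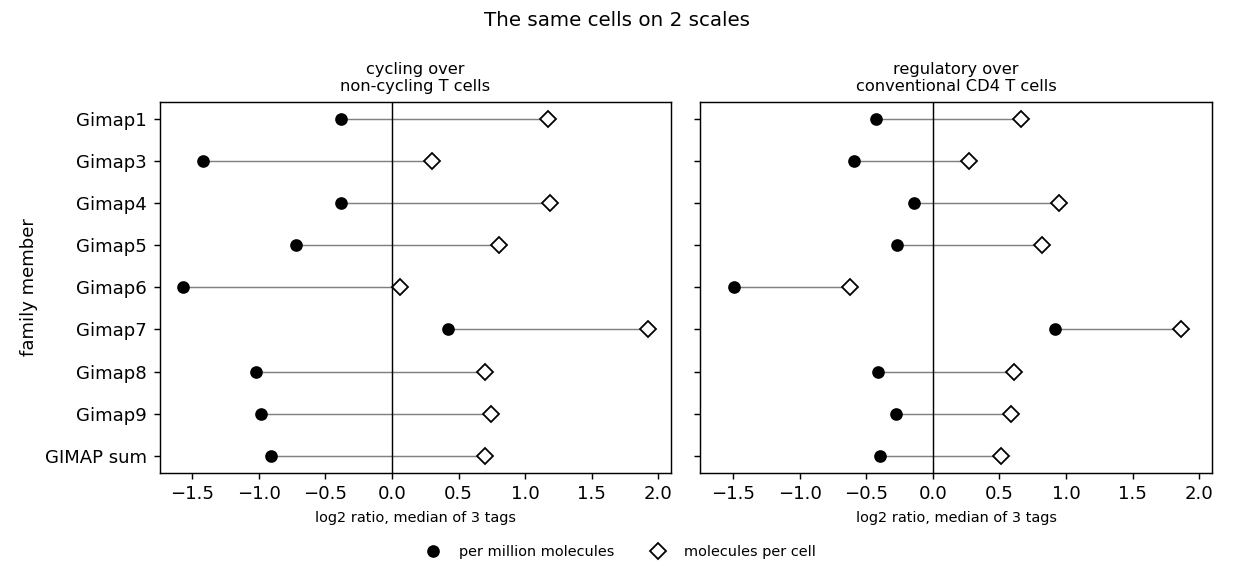
Median log2 ratio over 3 sample tags for cycling against non-cycling T cells and for regulatory against conventional CD4 T cells, in CPM (filled circles) and as molecules per cell (open diamonds). The summed family has medians of -0.91 and -0.40 in CPM, and of 0.70 and 0.51 as molecules per cell.

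Genes of quiescence and recirculation, a list chosen with earlier results of these data known, were read in the same cells. Their ratios are given in CPM alone, though cycling cells were deeper, and not after thinning or as molecules per cell. Of 13 such genes 9 were lower in cycling than in non-cycling T cells (4.10% of all tested genes) and 0 were higher (5.28%), with a list median log2 ratio of -1.62 beside -0.03 for all tested genes. They included Klf2, a transcription factor that keeps S1pr1 expressed, at -2.28, -2.69 and -2.20. Il7r, the interleukin 7 receptor, stood at -2.28, -2.45 and -2.30, and Tcf7, a transcription factor of naive and stem-like T cells, at -1.80, -1.84 and -1.77. Foxo1, Ccr7, Slfn2 and Cd27 did not pass the rule. The median over the 8 GIMAP members in that comparison was -0.85. In regulatory against conventional CD4 cells 5 of the 13 genes were lower (1.94% of all tested genes) and 1 was higher (2.40%), with a list median of -1.16, beside -0.34 for the GIMAP members and 0.03 for all tested genes.

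Genes of survival and of autophagy proteins, among them Gabarapl2, were read in the same way, from a list likewise chosen with earlier results known. Of 11 such genes 2 were lower in cycling than in non-cycling T cells (4.10% of all tested genes), 0 were higher (5.28%), and the list median was -0.09. The pair was Bcl2, an inhibitor of cell death, at -2.13, -1.98 and -2.15, and Bcl2l11, which encodes the death-promoting protein BIM, at -1.56, -1.13 and -1.23. Gabarapl2 had ratios between -0.16 and -0.02 in cycling against non-cycling cells. In T against myeloid cells 1 of the 11 genes was higher (20.2% of all tested genes), Bcl2 at 2.39, 2.69 and 2.49. Mcl1 and Gabarap were the 2 called lower (13.5%). The list median was -0.52, beside 0.37 for all tested genes, and nothing is read from these counts.

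Levels of the members followed one another across classes. The members were chosen on their levels in T, NK, B and myeloid cells, so this is a description and nothing is read from it. Over 36 points, which are 12 disjoint classes in 3 tags that share 1 capture and differ in depth, the correlation of log2(CPM + 1) between a member and the sum of the other 7 ran between 0.912 and 0.958. Over 15 points of 5 T cell groups, which are the subsets gated apart and the unresolved cells, it ran between 0.623 and 0.844 for 7 members. It was -0.028 for Gimap7. Among 8928 non-member genes the patterns most like that of the summed family belonged to Ccdc88c (0.951), Sept1 (0.945), Cd2 (0.941), Smad7 (0.940) and Stk4 (0.936). The sixth was 4833403J16Rik (0.933), a long noncoding RNA gene on the plus strand of the cluster itself, between Gimap5 and Gimap3 (48755338 to 48756368). It was the nearest pattern of all for Gimap3 (0.964) and for Gimap5 (0.957), from 432 molecules. Gimap6 was nearest to Pdcd4 (0.958) and Stk4 (0.956), and Gimap7 to Cd2 (0.952) and Lck (0.945).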

How the data were processed

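The authors deposited 1 table of whole-number counts, each the unique molecules of a gene in a cell with sequencing errors corrected by the RSEC method. Per the file headers, version 1.9.1 of BD's whole-transcriptome Rhapsody pipeline made it from GRCm38 and GENCODE release 19. The submitters' processing notes name GRCm39, but the header's build is used here. A targeted library is named in the series text, while the sample label and the header name a whole-transcriptome one. A second deposited table gives the tag of each cell.

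Single-tag cells entered if they had at least 200 genes and no more than 25% of molecules from mitochondrial genes. The 1448 multiplet and 361 undetermined calls were left out, and no doublet caller was run, so pairs of cells with the same tag remain. Of the kept cells, 455 held markers of both T and myeloid cells and entered no class. T, NK and B classes needed at least 2 molecules of their own markers, more than of any other immune class, and at most 2 of B, myeloid and pDC markers (for B cells, of T, NK, myeloid and pDC markers); NK cells held none of T, and T cells could hold NK markers below their T sum. The pDC class needed 2 of its own, more than of B or myeloid markers, and at most 1 of T and of NK. Myeloid cells needed 3 of their own and at most 1 each of T, NK and B, and melanoma cells at least 20. Gamma-delta T cells, taken first, had at least 2 molecules of Trdc and Tcrg-C1 and none of Trac, Cd4 and Cd8b1. Regulatory cells had Foxp3 and no Cd8a or Cd8b1. CD8 cells had Cd8a or Cd8b1 without Cd4 and Foxp3. Conventional CD4 cells had Cd4 without Cd8a, Cd8b1 and Foxp3. The other T cells were left unresolved. Cycling T cells had at least 2 molecules of Mki67 and Top2a, and non-cycling ones 0.

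For each class, the molecules of a tag were added up and scaled to their total (CPM). The log2 ratio of CPM was taken within each tag, and a sum of 0 was set to 3 counts and a gene with such a sum in a class was never called higher in that class. Genes needed 30 molecules and a 2-fold difference in every tag. With tags of unnamed genotype there are no replicates and no p-values. CPM has exact Poisson and shares exact Clopper-Pearson 95% intervals, which cover counting error only. The members and both gene lists (13 and 11 genes) were chosen with earlier results of these data known. Other genes were named as the 10 with the highest correlation of log2(CPM + 1), a pseudocount of 1, among genes with at least 300 molecules, leaving out gate, mitochondrial and immunoglobulin genes. The motifs were picked as letters known for lymphocyte transcription factors. The rule was tested on simulated data. A further comparison of T cell states and 1 list gene are not reported here. Gene models are from GENCODE release 21 on GRCm38 and promoters from RefSeq on GRCm38.p6. Alternatives used other gates, filters and scalings, and each tag left out; the TMM scaling used edgeR 4.0.16 (R version 4.3.3). Those on molecules per cell, on a wider NK gate, on T cells without NK markers, on the make-up of cycling T cells and on marker-free myeloid cells were chosen after seeing the data. The other steps ran in Python 3.11.15 with matplotlib 3.10.9, pandas 2.3.3, scipy 1.17.1 and numpy 2.4.6.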

Additional observations from a re-analysis of the deposited data

Results flagged for a closer look

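Cells outside the comparisons also held GIMAP molecules. The 1271 cells with a multiplet tag call that passed the filters had a family level of 467 CPM (454 to 480.4, exact Poisson interval), against 13.65 (8.75 to 20.3) in the 50 melanoma cells and 455 (449.8 to 460.3) in all kept single-tag cells. The 175 cells with an undetermined tag had 15.87 CPM (12.2 to 20.3), an interval that overlaps the melanoma one. Both values appear in data that the comparisons do not use.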

How the results depend on the processing

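The family ratios of lymphocytes to myeloid cells kept their direction under every alternative run, at medians of 5.99 to 6.99 for T, 5.50 to 7.47 for NK and 4.41 to 6.23 for B cells. Thinning each cell to 1000 molecules left 3 members called higher in NK and 4 in B against myeloid cells, and a minimum of 100 molecules left 3 and 3. At that minimum Gimap3, Gimap4 and Gimap6 alone held enough molecules to be tested in either comparison, and each was called. Thinning also leaves fewer molecules toward the 30 that the rule needs. Over all tested genes, thinning called 434 of 8302 higher in NK and 948 of 8458 in B cells. The minimum of 100 molecules called 541 of 9687 and 1219 of 9742. Against T cells, members called lower in B cells numbered 4 after thinning, with TMM, with a mean of CPM over cells and without the 5% of cells with most molecules, 1 at a mitochondrial limit of 10%, and 5 as molecules per cell. Tested genes called lower were 235 of 7348 after thinning, 707 of 10422 with TMM and 988 of 10422 with a mean over cells. They were 484 of 10034 without the deepest cells, 340 of 10311 at that mitochondrial limit and 2622 of 10422 as molecules per cell. In NK cells the members called lower numbered 1 with TMM, at that mitochondrial limit and as molecules per cell, and 0 to 1 with each tag left out. Tested genes called lower there were 161 of 10332 with TMM, 71 of 10263 at that limit and 473 of 10332 as molecules per cell. They were 302 of 9889, 140 of 9589 and 158 of 9615 without tag 8, 9 or 10.

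The calls within T cells were less stable. CD8 against conventional CD4 cells had 0 members lower with stricter gates, after thinning, without mitochondrial, ribosomal and immunoglobulin genes in the total, with a mean of CPM over cells, without the deepest cells and as molecules per cell. Tested genes called lower were, in that order, 99 of 7560, 54 of 5188 and 160 of 9279. They were then 105 of 9279, 131 of 8900 and 25 of 9279. Regulatory cells had 0 members lower after thinning, with a mean of CPM over cells and as molecules per cell. Tested genes called lower there were 43 of 3020, 105 of 7198 and 26 of 7198. Cycling cells had 0 members lower after thinning, as molecules per cell and within T cells without checkpoint molecules, and 1 with a mean of CPM over cells. Tested genes called lower there were 94 of 6731, 7 of 10150, 94 of 8577 and 225 of 10150.

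Family log2 ratios that changed were -0.62 after thinning, -0.47 with a mean of CPM over cells and 0.19 as molecules per cell for CD8 cells. For regulatory cells they were -0.57 with stricter gates, -0.22 after thinning and 0.51 as molecules per cell. For cycling cells they were -0.53 after thinning, -0.67 with a mean of CPM over cells, 0.70 as molecules per cell, -1.10 within CD8 cells and -0.35 without checkpoint receptor molecules. As molecules per cell they were -0.75 for NK and -1.87 for B against T cells. Of the called members, Gimap3 at 0.30 and Gimap6 at 0.06 reversed in cycling cells as molecules per cell, a scale on which depth per cell enters. Uncalled members changed sign on that scale too.

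Some family levels shifted from their median over tags in the main setting. In NK cells they were 2273 and 2048 CPM with stricter and looser gates, 2025 with a mean of CPM over cells and 2392 without the deepest cells. In B cells they were 1055 with stricter gates, 1227 with the reduced total and 1039 at the lower mitochondrial limit. In T cells they were 1924 after thinning, 1876 with the reduced total and 1925 with a mean over cells. In pDC they were 137 with looser gates and 134.2 with the reduced total. In cycling cells they were 1269 with stricter gates, 1365 after thinning, 1275 with the reduced total and 1262 with a mean over cells. In myeloid cells they were 13.1 and 22.8 with stricter and looser gates, 25.1 after thinning, 19.99 with TMM, 18.2 with the reduced total, 13.8 at the lower mitochondrial limit, 17.7 without cell filters and 28.3 with a mean over cells. The cause of these shifts was not tested.

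The share of higher genes among all called genes moved with the scaling. Against myeloid cells it was 59.9% for T (43.5% with TMM and 43.6% as molecules per cell), 63.8% for NK (29.2% with TMM, 35.4% with a mean over cells and 16% as molecules per cell) and 63.2% for B cells (32.6%, 49.2% and 7.49%, and 74.1% with the reduced total). Against T cells it was 70.5% for NK (35.6% with TMM, 15.1% with a mean over cells and 9.90% as molecules per cell) and 48.1% for B cells (35.7%, 29.4% and 5.75%). Within T cells it was 55.9% for CD8 (71.0% with a mean over cells and 98.7% as molecules per cell), 55.3% for regulatory (66.6% and 98.4%) and 56.3% for cycling cells (67.2% and 99.9%). Among single members, 1012 of the values under the alternatives kept their side of the threshold, of which 67, all of uncalled members, changed sign. A further 16 fell below the threshold and 22 rose past it. No paired analysis was possible because the tags carry no replicate number or genotype and no test was run; each ratio is already taken within a tag. Depth limits the NK class of 77 cells and Gimap7 in NK and B cells, at 1 to 4 molecules per tag.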
